A study of Mus musculus with 6 samples.

Results

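Nr4a1, Nr4a2, Nr4a3, Egr1, Egr2 and Egr3, the NR4A and EGR transcription factor genes that T cells switch on after antigen receptor engagement, were followed across CD8 T cells sorted from mouse tumours. They are 6 of the 15601 genes of the count table, chosen by family but without Egr4, and all 6 had counts. The cells came from subcutaneous tumours of MB49, a mouse urothelial carcinoma line, grown in wild-type C57BL/6 hosts that were 6 weeks old at inoculation. Tumours were taken on day 10, and live CD3+ CD8+ CD4- cells were sorted and sequenced by droplet single-cell RNA-seq (10x Genomics, 3' end counting). The groups were male hosts and female hosts, 3 libraries each, with no other treatment or genotype. The labels call the libraries biological replicates and do not say whether 1 library is 1 mouse or a pool, so the p-values measure the spread between these libraries.

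The table held 26698 cells, 9955 from females and 16743 from males, with a median of 6397.5 to 10114.5 unique molecular identifiers (UMIs, counted RNA molecules) per cell and library. Cd8a was seen in 81.4% to 93.0% of the cells of each library and Cd4 at no more than 0.548 CPM (counts per gene scaled to a common library total). There were 84 cell barcodes that occurred under more than 1 library number. The deposited clusters, numbered 0 to 10, divide the cells, and their names here rest on marker genes. Cluster 2 was innate-like (Klrb1c, Fcer1g, Tyrobp), clusters 3 and 5 were proliferating-like (Cdk1, Mcm5), cluster 7 was naive or central memory-like (Tcf7, Ccr7) and cluster 9 was interferon-stimulated-like (Ifit1, Ifit3, Rsad2). Clusters 0, 1, 4, 6, 8 and 10 kept only their numbers. Cluster 4 was led by Il2, Il3, Ccl4, Ccl3 and Xcl1, and Egr2, Nr4a3 and Nr4a1 were themselves among its 10 leading genes. Clusters 6 and 10 were shallow, at a median of 1742 and 1461 UMIs per cell, with 30.03% and 20.3% of the counts from mitochondrial genes at the median.

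The NR4A proteins are orphan nuclear receptors: their ligand pocket is closed, so their activity follows how much of the protein a cell makes. The EGR proteins are zinc-finger factors that bind GC-rich sites, and NAB1 and NAB2 are their corepressors. In T cells both families are immediate early genes of antigen receptor signalling, with calcium, calcineurin and NFAT feeding mainly the NR4A genes and Egr2 and Egr3, and the MAP kinase and SRF route feeding Egr1. NR4A factors are known to restrain effector genes and to take part in the exhaustion of tumour-infiltrating CD8 T cells, and Egr2 and Egr3 are known for their part in anergy.

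The sequences just upstream of the start sites are shown because the 5 abundant genes were highest in the same cluster, as the levels further on describe. RefSeq windows of the build GRCm38.p6 were matched by symbol for 4 of the 6 genes (Nr4a1, Nr4a2, Nr4a3 and Egr2), out of 32851 windows of 27025 genes. Each window covers the 250 bases before the start site. Nr4a1 (ENSMUSG00000023034.7) lies on the plus strand at chr15:101254269-101274795, Nr4a2 (ENSMUSG00000026826.13) on the minus strand at chr2:57106830-57124003, and Nr4a3 (ENSMUSG00000028341.9) on the plus strand at chr4:48045153-48086447. Egr2 (ENSMUSG00000037868.15) lies on the plus strand at chr10:67535475-67542188 and Egr3 (ENSMUSG00000033730.4) on the plus strand at chr14:70077203-70082614. All are protein coding in the GENCODE annotation of GRCm38. Capitals mark TGACG or its reverse complement CGTCA, the core of the cyclic AMP response element that CREB and ATF factors bind. In the Nr4a1 window the capitals take in the longer word TGCGTCA, and in Egr2 also the CArG box, the motif of SRF. The printed Nr4a1 window runs over chr15:101266596-101266845 on the plus strand and lies between annotated exons of the gene's longer transcripts.
Nr4a1: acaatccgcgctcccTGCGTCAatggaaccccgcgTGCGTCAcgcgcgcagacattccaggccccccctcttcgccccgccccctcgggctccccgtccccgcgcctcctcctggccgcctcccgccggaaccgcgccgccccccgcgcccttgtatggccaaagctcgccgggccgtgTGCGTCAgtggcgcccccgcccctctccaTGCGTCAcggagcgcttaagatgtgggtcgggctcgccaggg

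The Nr4a2 window runs over chr2:57124004-57124253 and is written on the minus strand, upstream of the annotated gene.
Nr4a2: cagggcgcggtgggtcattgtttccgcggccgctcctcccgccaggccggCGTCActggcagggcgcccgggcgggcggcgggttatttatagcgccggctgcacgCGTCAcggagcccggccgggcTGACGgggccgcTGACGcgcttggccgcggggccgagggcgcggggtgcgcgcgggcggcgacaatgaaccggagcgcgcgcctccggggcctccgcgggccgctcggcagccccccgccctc

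Only the first 98 bases of the Nr4a3 window are printed, chr4:48045055-48045152 on the plus strand, since the rest lies in an annotated Nr4a3 exon.
Nr4a3: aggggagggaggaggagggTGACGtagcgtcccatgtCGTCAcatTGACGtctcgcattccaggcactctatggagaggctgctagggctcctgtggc

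The Egr2 window runs over chr10:67537619-67537868 on the plus strand, inside an intron of a longer Egr2 transcript.
Egr2: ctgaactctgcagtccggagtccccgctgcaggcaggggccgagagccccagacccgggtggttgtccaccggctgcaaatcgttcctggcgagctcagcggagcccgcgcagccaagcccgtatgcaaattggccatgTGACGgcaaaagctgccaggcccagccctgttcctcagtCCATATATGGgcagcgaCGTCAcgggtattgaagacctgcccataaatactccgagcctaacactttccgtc

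Each NR4A window held 4 matches to TGACG on either strand, and 3 of the Nr4a3 matches fall in the printed bases. At least 4 matches stood in 45 of all 32851 windows (0.137%), which belong to 44 genes, and in 0.370% of the 9178 windows with a GC content of at least 60%. Windows of 1 gene overlap, so they are not independent. In Nr4a1 all 4 matches were part of the word TGCGTCA, which holds CGTCA and was chosen after the windows had been seen. It stood at least once in 1.75% of all windows, and Nr4a1 had the only window with 3 or more. The full palindrome TGACGTCA was in no window of the 4 genes and in 1.55% of all windows.

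Egr2 had 5 RefSeq windows, and the printed one is that with the most TGACG matches among those without exon bases. It had 2 TGACG matches, a count that 3.90% of windows reach, and a CArG box 72 to 63 bases before the start, which 1.47% of windows hold. Of the other Egr2 windows, those starting at 67535249 and 67537316 had 0 TGACG matches, and the former had no CArG box. GCGNGGGCG, the EGR motif, occurred in the Nr4a1 and Nr4a2 windows and in 4.70% of all windows, or 14.5% of those with a GC content of at least 60%. The octamer AAAGGTCA, bound by NR4A proteins, was in none of the printed windows and in 1.34% of all. GGAAA, the core of NFAT sites, had 1 match each in the Nr4a2 window and the printed Egr2 window and none in those of Nr4a1 and Nr4a3. It is in 55.6% of all windows, or 41.5% of those with a GC content of at least 60%. These matches are descriptions of letters, and whether any factor binds there was not measured.

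**Figure D1:**
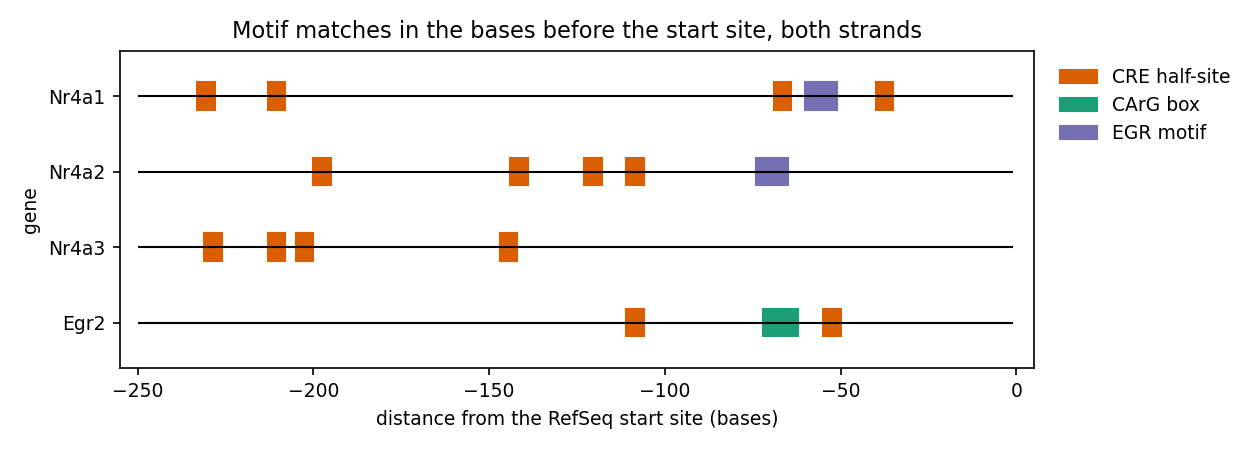
Matches to 3 motifs in the 250 bases before the RefSeq start site of Nr4a1, Nr4a2, Nr4a3 and Egr2; the horizontal axis is the distance from the start site in bases, and each box is 1 match on either strand. All 3 NR4A rows carry 4 cyclic AMP response element half-sites (TGACG), and the CArG box is in the Egr2 row only.

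Across the clusters, all 5 abundant genes were highest in cluster 4, and cluster 7 (naive or central memory-like) or cluster 8 was lowest. Levels are CPM of counts summed per library and cluster, and the means and SDs are over the 6 libraries. They are descriptions with no test, since the clusters were made from these cells' own expression. A level of one gene is not set against that of another gene here.

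Among the orphan receptors, Nr4a1 (Nur77, widely used as a reporter of antigen receptor signal strength) stood far above the rest in cluster 4. Its level there ran from 358 CPM through a median of 397 to 423 CPM over the libraries. The next cluster, 0, ran from 65.4 through 91.1 to 103 CPM. The 2 ranges lay far apart, with cluster 4 highest in 6 of 6 libraries and 4.50-fold over cluster 0 by the means of 396 ± 22.8 and 88.0 ± 13.7 CPM (SD, n = 6). From cluster 0 down to cluster 8, at 29.8 ± 10.3 CPM, each neighbour in the order overlapped the next, through clusters 3, 1, 10, 9, 5, 2, 6 and 7. The whole span was 13.3-fold.

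Nr4a2 (Nurr1) was more evenly spread. Its cluster 4 levels ran from 458 through a median of 559 to 585 CPM, and cluster 0 from 203 through 229 to 302 CPM. Cluster 4 was above cluster 0 in every library, by 2.22-fold, with ranges that did not overlap. Its second clear step was at the bottom: cluster 7, at 59.4 ± 16.1 CPM (SD, n = 6), was below cluster 9, at 130 ± 29.6 CPM, in 6 of 6 libraries with no overlap. Between these ends the means went from 243 CPM in cluster 0 through clusters 10, 3, 5, 2, 6, 1 and 8 with overlap at every neighbour. The span from cluster 4 to cluster 7 was 9.08-fold.

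Nr4a3 (Nor1), known as a restraint on CD8 T cell memory, followed Nr4a1 with a wider scatter at the top. In cluster 4 it ran from 338 through a median of 383 to 586 CPM, the highest value being that of female library 6. Cluster 10, the next in order, ran from 47.7 through 92.5 to 138 CPM, and cluster 0 from 61.8 through 88.4 to 105 CPM. Cluster 4 thus stood apart from both in all 6 libraries, whereas clusters 10 and 0 overlapped and kept their order in only 2 libraries. Cluster 7 was lowest, at 30.1 ± 9.98 CPM (SD, n = 6), which makes the span 13.7-fold.

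Egr1, the EGR member driven through MAP kinase and SRF, was the flattest of the abundant genes. It ran from 103 through a median of 118 to 144 CPM in cluster 4 and from 68.3 through 101 to 111 CPM in cluster 10. Cluster 4 was above cluster 10 in all 6 libraries, but by 1.28-fold and with overlapping ranges, and cluster 10 is the shallowest one, with 199 Egr1 UMIs in all. Over cluster 0, at 80.1 ± 6.78 CPM (SD, n = 6), the step was 1.51-fold with no overlap. In 1 library, female library 6, the interferon-stimulated-like cluster 9 was the highest instead. The lowest cluster was 7, at 28.9 ± 8.33 CPM, for a span of 4.18-fold.

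Egr2, an anergy-linked EGR factor, had fewer counts (2674 UMIs in all cells) and the widest span. It ran from 36.4 through a median of 44.7 to 47.7 CPM in cluster 4 and from 5.32 through 8.38 to 10.3 CPM in cluster 0. The ranges did not overlap and the means differed 5.39-fold, in 6 of 6 libraries. Cluster 8 had the lowest mean, 2.53 ± 0.654 CPM (SD, n = 6), from 72 UMIs, and the span was 17.2-fold. All neighbours from cluster 0 downward overlapped.

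Egr3, the partner of Egr2 in anergy, was almost unseen, with 62 UMIs in 60 cells and no cell above 2. Its highest mean was 0.506 ± 0.325 CPM (SD, n = 6) in cluster 4, from 17 UMIs, and no neighbours in its order were separate. None of 1276 cells in cluster 9 and none of 2034 in cluster 6 had a UMI, which allows shares of cells with a UMI of up to 0.235% and 0.147% and sets no limit on the share of cells expressing the gene. No difference in Egr3 was detectable at this depth. Such limits and intervals cover counting error only.

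**Figure D2:**
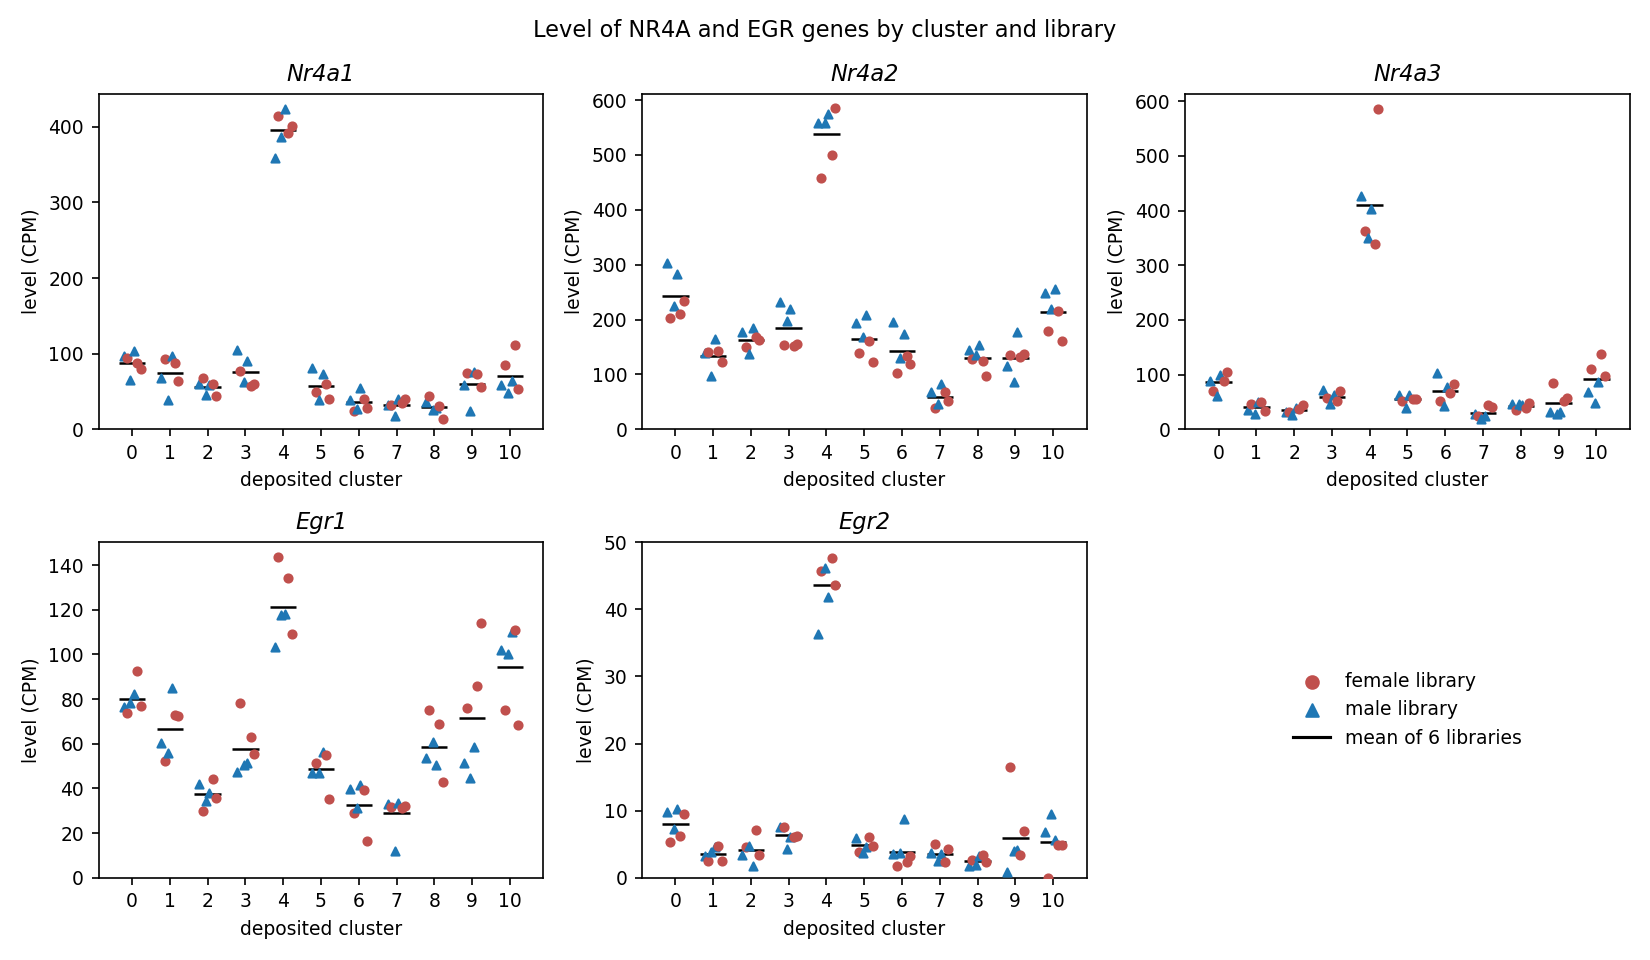
Level of Nr4a1, Nr4a2, Nr4a3, Egr1 and Egr2 (vertical axis, CPM) in each deposited cluster (horizontal axis), with a point per library (red circles female, blue triangles male) and a bar at the mean of the 6 libraries. Cluster 4 is highest in each panel, from 43.6 CPM for Egr2 to 539 CPM for Nr4a2, and its points stand clear of the rest except for Egr1.

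Cluster 4 held 9.78% of all UMIs but 39.3% of those of Nr4a1, 43.2% of Nr4a3 and 46.5% of Egr2. For Nr4a2 the share was 24.9% and for Egr1 18.2%. Egr1 transcripts were the most dispersed, since cluster 0 held 21.4% of them and the proliferating-like cluster 3 held 20.3%. Single cells of cluster 4 reached 70 UMIs of Nr4a1, 53 of Nr4a3, 51 of Nr4a2, 54 of Egr1 and 27 of Egr2. Of its 2442 cells, 352 had at least 10 UMIs of Nr4a1, 535 of Nr4a2, 343 of Nr4a3 and 65 of Egr1.

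The share of cells with at least 1 UMI was also highest in cluster 4 for these 5 genes once depth was made equal. Each cell was thinned at random to 1000 UMIs, which left out 242 cells (73 female and 169 male, 139 of them in cluster 10 and 83 in cluster 6). Of the thinned cells of cluster 4, 31.2% ± 3.33 had Nr4a1 (SD, n = 6), 39.2% ± 3.65 had Nr4a2 and 32.8% ± 4.57 had Nr4a3. The EGR genes reached 9.60% ± 1.37 for Egr1 and 5.00% ± 0.786 for Egr2. Any of the 6 genes was present in 65.9% ± 3.81 of these cells, against 34.0% in cluster 0 and 28.6% over all cells. In cluster 7 it was 12.1% ± 3.61.

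Without thinning, the shares in cluster 4 were 79.5% for Nr4a1, 87.1% for Nr4a2, 82.8% for Nr4a3, 47.3% for Egr1 and 26.5% for Egr2. The unthinned Egr1 share was higher in cluster 3, at 49.8%, where cells had a median of 23987.5 UMIs against 9648 in cluster 4, while its thinned share there was 5.77%. The sort holds no cell type known to lack these genes, so free RNA could not be gauged. Shares in clusters 7 and 8, which held the lowest levels, are given instead. Thinned shares there were 2.16% for Nr4a1 in cluster 8 and, in cluster 7, 4.0% for Nr4a2, 2.56% for Nr4a3, 3.38% for Egr1 and 0.188% for Egr2, with medians of 13987 and 7465 UMIs per cell. Shares of Egr1 in clusters 2 and 6, at 3.89% and 3.20%, were close to or below its share in cluster 7. How much of such low shares is free RNA was not tested.

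Cells of cluster 4 tended to carry several of the genes at once. Thinned to 3000 UMIs, 66.6% ± 3.47 of them had 2 or more of the 6 genes (SD, n = 6) and 41.3% ± 4.04 had 3 or more. Over all cells these shares were 22.2% and 8.51%, and no other cluster had more than 8.05% of cells with 3 or more, which was the value of cluster 0. In cluster 7, 72.9% of the cells had none of the genes, against 13.1% in cluster 4. This depth left out 3816 cells, among them 91.7% of cluster 10 and 83.0% of cluster 6, so those 2 clusters are thinly covered here.

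**Figure D3:**
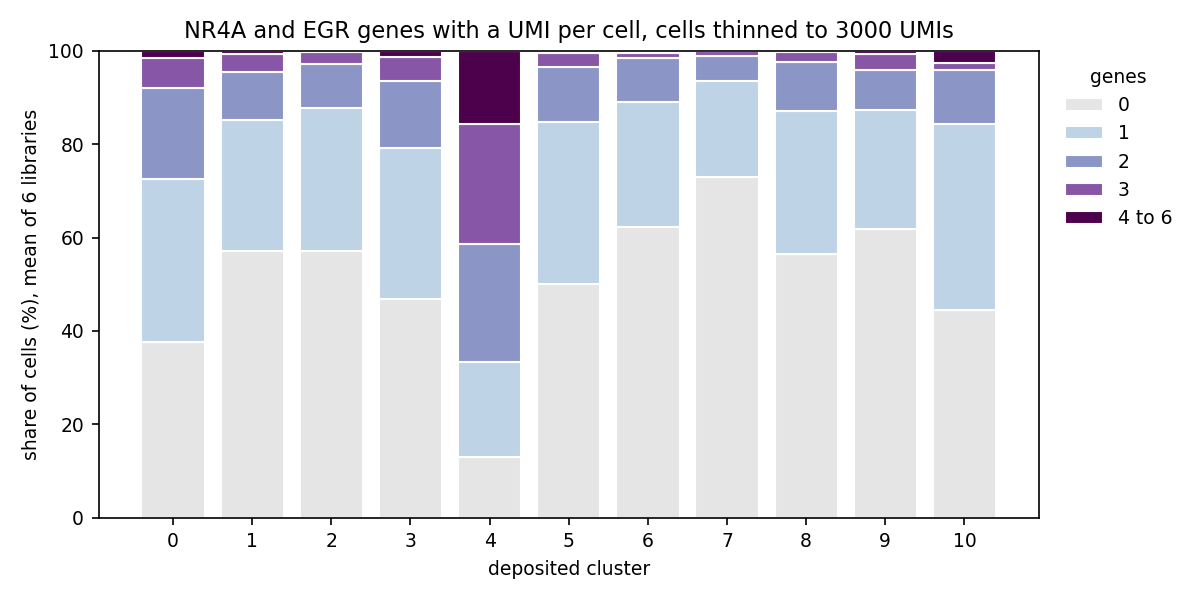
Share of cells (vertical axis, percent, mean of the 6 libraries) with 0, 1, 2, 3 or 4 to 6 of the NR4A and EGR genes detected, by deposited cluster (horizontal axis), after thinning every cell to 3000 UMIs. The dark parts for 3 or more genes make up 41.3% of cluster 4 and at most 8.05% of any other cluster.

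The genes also coincided among the cells within cluster 4. At 3000 UMIs per cell, Nr4a3 was present in 70.5% ± 5.64 of the cells with Nr4a1 and in 43.6% ± 2.10 of those without it (SD, n = 6). Nr4a2 was present in 77.4% ± 5.31 of the cells with Nr4a3 and in 51.1% ± 5.86 of those without. Across the families, Nr4a1 was in 74.2% ± 4.77 of the Egr1-positive and 47.9% ± 4.50 of the Egr1-negative cells. Within the EGR family, Egr2 was in 23.4% ± 4.50 of Egr1-positive and 8.87% ± 0.911 of Egr1-negative cells. Every ordered pair of the 5 genes was higher in positive cells in 6 of 6 libraries, except Nr4a1 with Egr2, which was higher in 5 of 6 libraries whichever of the 2 was the given gene. For Nr4a1 and Nr4a2, such coincidence was also seen outside cluster 4. In cluster 0, Nr4a2 was in 56.9% of the Nr4a1-positive and 37.9% of the Nr4a1-negative cells. In cluster 1 the shares were 40.8% and 19.4%, and in cluster 4 they were 76.5% and 54.6%. These 3 clusters kept the order in 6 of 6 libraries, clusters 5 and 6 in 5 and cluster 10 in 3. Not every pair coincided in every cluster. In cluster 6, Egr1 was in 7.38% of the Nr4a3-positive cells (35 cells) and 8.87% of the negative ones, and higher in positive cells in 1 of 6 libraries. In cluster 7 these shares were 6.30% and 6.41%. Cells of 1 library share their source, so these shares are given without a test.

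Genes with the most similar pattern were sought over the 66 library and cluster sums, among 8246 genes with a mean of at least 5 CPM, by Pearson's r of log2(CPM + 1). The sums share libraries and clusters, so r is a description. For Nr4a1 the nearest genes were Nfkbid (r = 0.90), Nfkbiz (0.88), Rel (0.86), Top1 (0.85) and Nr4a2 (0.84). Nfkbid and Nfkbiz encode nuclear IkB proteins and Rel encodes the NF-kB subunit c-Rel. Nr4a3 was nearest to Rel (0.90), Nfkbid (0.88), Dot1l (0.86), Stat3 (0.86) and Map2k3 (0.85). Nr4a2 was nearest to Rel (0.86), Nr4a1 (0.84), Nr4a3 (0.84), Adora2a, an adenosine receptor gene (0.83), and Map2k3 (0.82).

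The 5 nearest genes of Egr2 and of Egr1 differed. Those of Egr2 included NR4A genes: Nfkbid (0.87), Rel (0.82), Nr4a1 (0.79), Nr4a3 (0.77) and Tbl1x (0.77). Egr1 was nearest to Dusp5 (0.89), Rock1 (0.82), Pim1 (0.82), Purb (0.81) and Dusp2 (0.80), where Dusp5 and Dusp2 are phosphatases that switch off ERK. With Nr4a2, Egr1 and Egr2 both had r = 0.72. With Nr4a1 and Nr4a3, Egr1 had r = 0.71 and 0.64. Egr1 and Egr2 had r = 0.57 with each other, the lowest value among the 5 abundant genes. Egr2 had few counts, down to 0 UMIs in a sum, which limits its r. For Egr3 no gene exceeded 0.46, and with 62 UMIs that is no finding.

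The wider pathway was described by gene lists, counting how many members had their highest mean in cluster 4. Over the 8622 genes with a mean of at least 5 CPM, 15.3% did. Of 26 genes of the T cell receptor response, 20 did, among them Il2, Ccl3, Ccl4, Ifng, Irf4, Nfkbid and Rel. Their summed level in cluster 4 was 32355 CPM, against 1621 CPM in cluster 7, and Ccl4, Ifng and Ccl3 made up 77.3% of the cluster 4 sum. Exceptions included Tnfrsf9, Il2ra and Cd69, which were highest in cluster 6. Il2, Ccl4, Ccl3, Xcl1 and Ifng were among the 10 leading genes of cluster 4. Since the clusters were made from these cells' own expression, the count of 20 is a description and no test.

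Of 17 genes listed as partners and reported targets of the EGR and NR4A factors, 5 were highest in cluster 4: Egr4, Nab1, Nab2, Crtam and Sema7a. Another 4 were highest in cluster 6. Egr4 is itself an EGR family gene and was counted in this list. All 17 summed to 4406 CPM in cluster 6, 2808 CPM in cluster 0 and 2539 CPM in cluster 4, so cluster 4 did not lead the sum. The corepressor Nab2 ranged from 13.1 CPM in cluster 7 to 44.4 CPM in cluster 4, close behind which cluster 3 stood at 43.7 CPM. Of the 12 exhaustion genes measured, 2 were highest in cluster 4, while 7 were highest in cluster 6, as were 17.2% of all genes. In cluster 6, Nr4a1 was at 35.6 CPM, Egr1 at 32.8 CPM and Egr2 at 3.91 CPM, ranks 9, 10 and 8 among the 11 clusters. Nr4a2 was at 142 CPM there (rank 7) and Nr4a3 at 70.2 CPM (rank 4). The exhaustion list summed to 5212 CPM in cluster 6 and, next in order, 2482 CPM in cluster 0. In cluster 0 the abundant genes had rank 2 or 3. The upstream routes were near the share over all genes: 1 of 9 calcineurin and NFAT genes (Nfatc1) and 2 of 12 MAP kinase and SRF genes (Srf and Elk1) were highest in cluster 4. Of the 10 quiescence genes, none was.

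Tissue digestion is known to induce immediate early genes, so 22 immediate early and dissociation genes were followed beside Egr1 and the NR4A genes. Of these, 7 were highest in cluster 4: Junb, Ier2, Ier5, Atf3, Zfp36, Ppp1r15a and Hsp90aa1. The summed level of all 22 ran from 3413 CPM in cluster 6 to 7316 CPM in cluster 4. Fos and Jun, which like Junb encode AP-1 subunits, were highest in the innate-like cluster 2, at 191 and 264 CPM. Egr1 was at 37.4 CPM there and Nr4a1 at 55.8 CPM. In cluster 4, Fos was at 65.5 CPM and Jun at 95.3 CPM. The part of the digestion in these levels was not tested.

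The question the groups pose is whether male and female hosts differ. Over all cells outside the innate-like cluster 2, none of the 6 genes passed the test, edgeR's quasi-likelihood test with Benjamini-Hochberg adjustment over 12194 genes and a call at adjusted p under 0.05. It called 11 genes, or 0.0902% of those tested, and no member reached an unadjusted p under 0.05. DESeq2 called 1.12% of the genes and limma-voom 0.0902%, again with no member among them. Levels in this comparison are CPM scaled by TMM, and log2 fold changes are male minus female.

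Nr4a2 came nearest. Its female libraries were at 202, 196 and 179 CPM and its male libraries at 233, 195 and 247 CPM. The male library 3 lay among the females, so the sexes overlapped. The means were 192 ± 11.7 and 225 ± 26.9 CPM (SD, n = 3 each), a log2 fold change of 0.23 (SE 0.102, edgeR adjusted p = 0.596).

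Nr4a1 was at 121, 96.3 and 81.4 CPM in females and at 108, 70.8 and 118 CPM in males. The ranges covered each other, and the log2 fold change was -0.0098 (SE 0.214, edgeR adjusted p = 0.993). Nr4a3 was at 100.1, 87.3 and 111 CPM in females and at 102, 65.8 and 101 CPM in males, with the male library 3 lowest for both genes. Its log2 fold change was -0.15 (SE 0.172, edgeR adjusted p = 0.865).

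Among the EGR genes, Egr1 was at 80.3, 76.7 and 57.2 CPM in females and at 58.2, 59.7 and 67.7 CPM in males. Its 2 highest libraries and its lowest one were female, so the sexes overlapped. The log2 fold change was -0.21 (SE 0.126, edgeR adjusted p = 0.708). Egr2 was at 11.2, 9.63 and 8.78 CPM in females and at 9.33, 7.32 and 9.94 CPM in males, overlapping as well (log2 fold change -0.15, SE 0.138, edgeR adjusted p = 0.815). Egr3 stayed between 0.106 and 0.274 CPM in every library (log2 fold change 0.11, SE 0.482, edgeR adjusted p = 0.972).

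The mix of clusters also differed between the pooled cells of the sexes. Cluster 4 made up 10.5% of the female and 8.34% of the male cells, and cluster 7 made up 3.50% and 8.39%. These shares pool libraries of 2121 to 7156 cells, and the difference between libraries of the sexes was not tested. With every library given the same cluster mix, the log2 fold changes were -0.024 for Nr4a1, 0.26 for Nr4a2, -0.14 for Nr4a3, -0.097 for Egr1 and 0.0062 for Egr2, with no call. With cluster 4 left out as well as cluster 2, a setting added once the cluster levels were known, Nr4a1 was at 0.12 and Nr4a2 at 0.30, with no call. The signs for Nr4a1 and Egr2 are thus not settled by these libraries.

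No list had a called gene by edgeR in this comparison either. Of the 26 T cell receptor response genes, 11 were higher in males (median log2 fold change -0.10), and of the 16 tested partners and targets 5 were (-0.032). In the exhaustion list 2 of 12 were higher in males (-0.27), in the calcineurin and NFAT list 2 of 9 (-0.075) and in the MAP kinase and SRF list 3 of 12 (-0.094). The immediate early and dissociation list had 18 of 22 higher in males (0.087) and the quiescence list 9 of 10 (0.42), where the median over all genes was 0.0042. The genes with the smallest p in each list included Il2ra (-0.45) and Crtam (0.45) among receptor response genes, Cd38 (-0.25) and Entpd1 (-0.40) in the exhaustion list, Mapk3 (-0.25) and Rasgrp1 (-0.16) in the MAP kinase list and Cabin1 (0.24) in the calcineurin list. Socs3 (0.80), Lef1 (0.44), Foxp1 (0.39) and S1pr1 (0.80) were called by DESeq2 only, at adjusted p of 0.0039, 0.025, 0.050 and 0.032.

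Within single clusters, 3 of the 51 member and cluster pairs with enough counts were called: Nr4a3 and Egr1 in the interferon-stimulated-like cluster 9, lower in males, and Nr4a2 in the proliferating-like cluster 3, higher in males. In cluster 9 the test called 3.41% of all genes, and in cluster 3 it called 0.142%. Of the 51 pairs, 12 (23.5%) had an unadjusted p under 0.05, against 7.18% of the 94253 gene and cluster fits over all genes. These were Nr4a2 in clusters 0, 3, 5, 6, 7 and 8, Nr4a3 in 7, 9 and 10, Egr1 in 3 and 9, and Egr2 in 0. Nr4a1 had none. All pairs come from the same 6 libraries, so they are not independent and the share is no test of the family. DESeq2 also called 3 pairs. No member was called in cluster 0 (0.139% of all genes called), 1 (3.8%), 2 (0.358%), 4 (0.105%), 5 (0.0979%), 6 (0.181%), 7 (0.168%), 8 (0.0968%) or 10 (0.274%). The other 15 pairs had too few counts, and Egr3 was tested in no cluster.

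In cluster 9, Nr4a3 was at 83.9, 51.9 and 57.1 CPM in the female libraries and at 32.4, 27.1 and 32.4 CPM in the male ones. Every female library was above every male one, and female library 2 was the highest. The means were 64.3 ± 17.2 and 30.6 ± 3.03 CPM (SD, n = 3 each), from 202 and 190 UMIs, with a log2 fold change of -0.98 (SE 0.193, edgeR adjusted p = 0.0027). The call held in 9 of 9 alternatives, with adjusted p from 4.5e-05 to 0.029. In cells thinned to 1000 UMIs, 5.74% ± 1.57 of the female and 3.02% ± 0.937 of the male cells had Nr4a3.

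Egr1 in the same cluster was at 76.2, 85.7 and 114 CPM in females and at 51.3, 44.5 and 58.8 CPM in males, again without overlap. The means were 92.0 ± 19.7 and 51.5 ± 7.16 CPM (SD, n = 3 each), a log2 fold change of -0.76 (SE 0.165, edgeR adjusted p = 0.0068). The call held in 8 of 9 alternatives and was lost without male library 3, at adjusted p = 0.051 and a log2 fold change of -0.68.

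Other genes of receptor signalling stood beside these 2 in cluster 9. Of 24 receptor response genes tested there, 5 were called, all lower in males: Il2ra, Irf4, Irf8, Tnf and Bhlhe40, with log2 fold changes between -1.28 and -0.78. Of 10 exhaustion genes tested, Havcr2, Ctla4 and Entpd1 were called lower in males, and of 10 quiescence genes Ccr7, Lef1 and Foxp1 were called higher. The summed receptor response level was 4509 to 9235 CPM in the female libraries and 2374 to 3675 CPM in the male ones, with all 26 genes above 0. The 9 terminally exhausted markers summed to 1729 to 2343 CPM in females and 717 to 1122 CPM in males, and the 7 naive or central memory markers to 693 to 1209 and 1312 to 1767 CPM. The part of these cell states in the Nr4a3 and Egr1 differences was not tested.

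Further marker sums in cluster 9 parted the sexes. The 5 CD8 T cell markers summed to 4161 to 5421 CPM in females and 2944 to 3894 CPM in males, and the 5 CD4 and regulatory T cell markers to 23.3 to 44.2 and 7.20 to 13.2 CPM. The 17 partners and targets of the EGR and NR4A factors summed to 1778 to 2062 and 1069 to 1354 CPM. The part of these in the differences was not tested. Other sums overlapped. The 8 interferon-stimulated markers summed to 1424 to 1957 CPM in females and 1565 to 2366 CPM in males. The immediate early and dissociation list, at 6153 to 6664 and 6079 to 6739 CPM, overlapped too, although Egr1 did not. Female libraries had 93 to 158 cells in the cluster with a median depth of 7174 to 8444 UMIs, and male libraries 199 to 382 cells with 4973.5 to 7245 UMIs. The part of depth in the difference was not tested beyond the thinned shares above.

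Nr4a2 in cluster 3 was at 154, 153 and 155 CPM in the female libraries and at 231, 197 and 219 CPM in the male ones. The female libraries lay close together, and each male library was higher. The means were 154 ± 1.13 and 216 ± 17.2 CPM (SD, n = 3 each), a log2 fold change of 0.47 (SE 0.080, edgeR adjusted p = 0.041). The call held in 4 of 9 alternatives. It was lost on leaving out male library 1, female library 2, male library 4, female library 5 or female library 6, with adjusted p between 0.10 and 0.27 and a log2 fold change that stayed between 0.44 and 0.52 over all alternatives. No gene of the 7 lists was called in cluster 3.

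**Figure D4:**
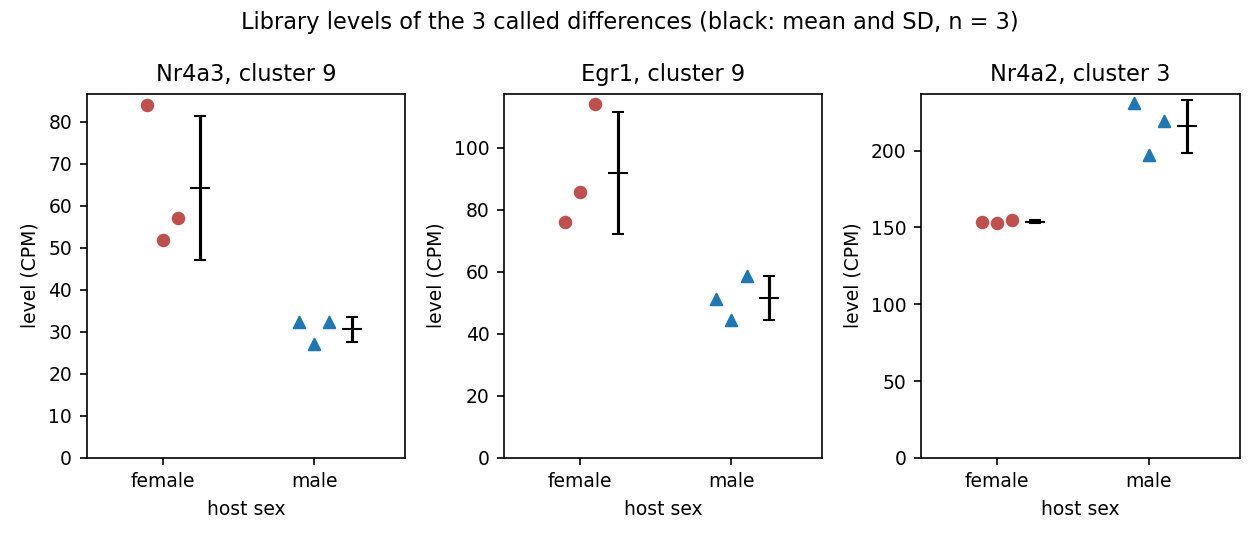
Level (vertical axis, CPM, starting at 0) in each library for the 3 called pairs, Nr4a3 and Egr1 in cluster 9 and Nr4a2 in cluster 3, with females as red circles and males as blue triangles, and the mean and SD of the 3 libraries in black. No male point overlaps the female points in any panel.

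In cluster 4, where the genes were highest, the sexes were close. Nr4a1 had a mean of 402 ± 10.7 CPM in the female and 389 ± 32.6 CPM in the male libraries (SD, n = 3 each), and Nr4a2 of 514 ± 64.5 and 564 ± 8.96 CPM. For Nr4a3 the values were 429 ± 137 and 393 ± 39.2 CPM, for Egr1 129 ± 17.9 and 113 ± 8.37 CPM, and for Egr2 45.7 ± 1.99 and 41.5 ± 4.87 CPM. No test here passed, which does not show that the sexes are alike.

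Over the clusters, the fold change was positive (higher in males) in 10 of 11 clusters for Nr4a2, and in 4 of 11 for Nr4a1, 3 of 11 for Nr4a3, 5 of 11 for Egr1 and 2 of 7 for Egr2. The clusters come from the same 6 libraries, so these counts are not independent. Whether the sex difference varied among clusters was tested in 1 model of all sums with a cluster by sex term. It called 1.56% of 10874 genes and none of the 5 members tested, with edgeR adjusted p of 0.304 for Nr4a2, 0.346 for Egr2, 0.348 for Nr4a3, 0.504 for Egr1 and 0.661 for Nr4a1. Unadjusted p was under 0.05 for Nr4a2, Nr4a3 and Egr2. Without male library 4 the term was called for Nr4a2 (adjusted p = 0.017). The differences in clusters 9 and 3 are therefore not shown to be particular to those clusters.

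**Figure D5:**
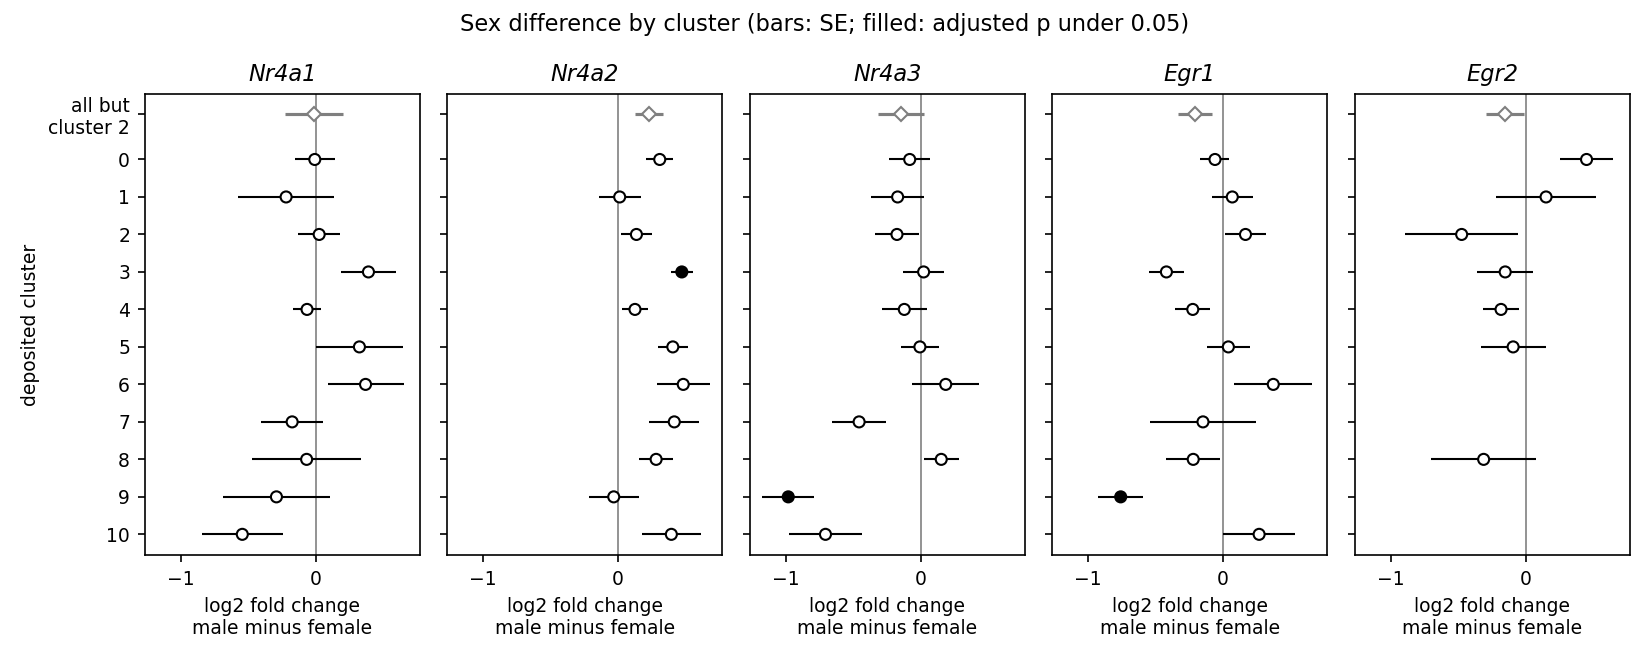
Log2 fold change, male minus female (horizontal axis), of Nr4a1, Nr4a2, Nr4a3, Egr1 and Egr2 by deposited cluster (vertical axis), with bars for the SE, filled points for adjusted p under 0.05 and grey diamonds for all cells outside cluster 2. The 3 filled points are Nr4a2 in cluster 3 at 0.47 and, in cluster 9, Nr4a3 at -0.98 and Egr1 at -0.76.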

How the data were processed

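Whole-number UMI counts per gene and cell were deposited by the authors with a table of cells giving host sex, cluster and total count. Cell Ranger, Seurat and the build mm10 are named, per the submitters' processing notes, without versions or settings. Library numbers were read from the cell names and sex from the deposited table, and 0 columns belonged to other samples. The 6 genes and the gene lists were chosen with earlier results of these data known. No doublet caller was run, and cells were kept as deposited (at least 501 genes and 640 UMIs each).

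Counts were summed per library, or per library and cluster (at least 20 cells), and tested with edgeR 4.0.16 (TMM, filterByExpr, robust quasi-likelihood) in R 4.3.3, with Benjamini-Hochberg adjustment and a threshold of 0.05. DESeq2 1.42.0, limma 3.58.1 (voom), other scaling, no filter, other cell sets and leaving out each library were the alternatives. Shares used cells thinned to 1000 UMIs, with 3000 as the alternative. The test was checked on simulated counts. Named genes were all 6 members, the 5 genes nearest each by r, and up to 4 genes per list with the smallest p between the sexes, of which some are named here. List genes named for their highest cluster, or as called within a cluster, were chosen after their values were seen. Promoter windows and gene positions come from RefSeq (GRCm38.p6) and GENCODE (GRCm38), the build that mm10 names.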

Additional observations from a re-analysis of the deposited data

How the results depend on the processing

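No member was called between the sexes over all cells under any of the 14 alternatives, each library left out included (0 to 0 calls). Within clusters there were 2 calls whichever library was left out, against 3 with all libraries, but not always the same 2. Nr4a3 in cluster 9 was called each time. Egr1 in cluster 9 was lost without male library 3, and Nr4a2 in cluster 3 was lost without any other library. Over the libraries left out, uncalled values ran from -0.15 to 0.18 for Nr4a1, from 0.16 to 0.32 for Nr4a2, from -0.25 to 0.030 for Nr4a3, from -0.34 to -0.12 for Egr1, from -0.24 to -0.040 for Egr2 and from -0.17 to 0.12 for Egr3, which passed the count filter in 3 of these fits. The sign turned for genes that were not called: Nr4a1 was at 0.15 without female library 2, at 0.18 without male library 3 and at 0.12 without clusters 2 and 4. Nr4a3 was at 0.030 without male library 3, and Egr2 at 0.0062 with the same cluster mix. Egr3 was at -0.17 without female library 2 and at -0.085 without male library 3. The cause was not tested. The cluster by sex term called 0 to 1 members over the libraries left out, with the 1 call (Nr4a2) without male library 4. Differences in the share of positive cells grew with depth, as deeper cells show more genes. Between cluster 4 and the lowest cluster they went from 29.0 percentage points at 1000 UMIs to 46.8 at 3000 UMIs and 57.1 unthinned for Nr4a1, from 35.2 to 54.5 and 64.5 for Nr4a2, and from 30.3 to 51.6 and 70.1 for Nr4a3. For Egr1 they went from 6.22 to 16.5 and 30.5, and for Egr2 from 4.59 to 11.3 and 23.1. Of the values that answer a comparison, 106 were scored as kept and 11 as moved. A count of calls was scored as kept when it stayed close, so 2 calls against 3 counted as kept. A level or share was scored as kept when it shifted by less than its SD over the libraries. For single genes, with each gene counted once per alternative, 93 values kept their verdict, 7 turned sign and 6 lost a call. Values that kept their verdict include uncalled ones that stayed uncalled. No paired analysis was possible because the library numbers in the cell names cannot be tied to the replicate numbers of the labels. Depth limits Egr3 and the per-cluster tests of Egr2.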
